A study of Mus musculus with 8 samples.

Results

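The genes described here encode the nuclear subunits of the oxidative phosphorylation machinery. They were taken by gene symbol from the array annotation, as every row whose symbol began with Nduf (leaving out the Ndufaf assembly factors), Uqcr, Cox4, Cox5, Cox6, Cox7, Cox8 or Atp5, or was Sdha, Sdhb, Sdhc or Sdhd. The rule found 85 genes among the 19505 genes named on the array, each with 1 of the 22206 rows. By symbol, 38 belonged to complex I, 4 to complex II, 8 to complex III, 18 to complex IV and 17 to complex V. The symbols also bring in isoforms known from other tissues and a gene that is no structural subunit. These are Cox4i2, Cox6a2, Cox6b2, Cox7a1, Cox7b2, Cox8b, Cox8c, Ndufa4l2 and Cox7a2l, together 9 genes, so that 76 remained without them.

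Oxidative phosphorylation takes place in the inner mitochondrial membrane. Complex I (NADH dehydrogenase) and complex II (succinate dehydrogenase) feed electrons into coenzyme Q, complex III passes them to cytochrome c, and complex IV (cytochrome c oxidase) hands them to oxygen. The proton gradient built up on the way drives complex V, the ATP synthase, which supplies most of the ATP that neurons spend on ion pumping and synaptic transmission. Some subunits are encoded by mitochondrial DNA, and none of the 13 genes of that kind was measured here.

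RNA came from brains of male ICR mice, an outbred strain, bought at 8 weeks of age and acclimatized for 1 week. The mice drank water or rosemary extract (RE) for 7 days, with 7 mice assigned to each group. The tail suspension test (TST) hangs a mouse by its tail and scores its immobility. The 4 groups were water without TST, water with TST, RE at 10 mg/kg with TST (low dose) and a higher RE dose with TST (high dose), with 2 Clariom S arrays each. The titles put the high dose at 100 mg/kg, while the source label has 50 mg/kg. Water without TST carries the name positive control in the agent label, and negative control is the name of water with TST; groups were formed by title. Limbic system is the labelled tissue, with hippocampus in the description. It is not stated if the 2 RNA samples of each group are individual mice or pools, so the p-values below measure the spread between these arrays, which may be technical.

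The deposited values are on a log2 scale, so a difference of 1 is a doubling on that scale. They ran from 2.76 to 19.79 over all rows, array medians lay between 7.45 and 7.51, and 58 of the 680 values of the 85 genes, in 9 genes, exceeded 16. Values above 16 lie past the range of a 16-bit scanner, so differences hold on the deposited scale only. Water with TST replicate 2 stood apart: its correlations with the other 7 arrays over all rows were 0.967 to 0.978, against 0.983 to 0.993 between the others. Its 16 measured cerebellar marker genes lay on average 3.91 above their 8-array means, and those of water without TST replicate 1 lay 2.09 above, against -1.23 to -0.515 on the other arrays. On water with TST replicate 2 the mean deviation was -1.26 for 12 forebrain excitatory neuron markers, -1.26 for 11 striatal markers and -1.34 for 11 choroid plexus markers. On low-dose replicate 2 it was 0.778 for choroid plexus, -0.685 for striatal and -0.493 for 11 astrocyte markers. On water without TST replicate 2 all 11 striatal markers were high, with a mean of 1.84. The 10 thalamic markers separated the RE arrays from the water arrays. Their mean deviation was 0.362 to 0.717 on the RE arrays and -1.29 to 0.0291 on the water arrays. The part of these differences in tissue content in the results below was not tested, and in tissue RNA fewer cells of a type and less RNA per cell cannot be told apart.

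The upstream sequences of the genes were searched for motifs of factors known to control nuclear respiratory genes: nuclear respiratory factor 1 (NRF1, letters GCGCATGC), the ETS family with GABPA (CCGGAAG) and YY1 (AAGATGGC). Both strands of the 250 bases before each gene's start were read from RefSeq's table for GRCm38.p6, which held 70 of the 85 genes. The ends of the ETS and YY1 letters can overlap. The NRF1 letters were found in 8 of the 70 windows (11.4%), against 3.07% of the windows of 15691 genes named on the array. The ETS letters were found in 11 (15.7%, against 9.43%) and the YY1 letters in 0 (against 1.52% over all genes). The genes with the NRF1 letters were Ndufa6, Ndufa8, Ndufa11, Sdhb, Cox6a1, Atp5g2, Atp5k and Atp5l. Those with the ETS letters were Ndufb6, Ndufb7, Ndufs3, Sdhd, Uqcr11, Uqcrh, Cox6a1, Cox6b1, Atp5e, Atp5h and Atp5l. No window was listed for Ndufa2, Ndufa4l2, Ndufb9, Ndufs1, Sdhc, Uqcrb, Uqcrc2, Uqcrq, Cox4i1, Cox4i2, Cox6a2, Cox6c, Cox8c, Atp5a1 and Atp5mpl.

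The sequences of 4 windows follow, read 5′ to 3′ on the gene's strand, with matches in capitals. Atp5l and Cox6a1 hold both kinds of letters, and Atp5e and Uqcr11 are the genes of complexes V and III with the largest differences under TST, in opposite directions.
Atp5e (chr2:174464102-174464351, minus strand): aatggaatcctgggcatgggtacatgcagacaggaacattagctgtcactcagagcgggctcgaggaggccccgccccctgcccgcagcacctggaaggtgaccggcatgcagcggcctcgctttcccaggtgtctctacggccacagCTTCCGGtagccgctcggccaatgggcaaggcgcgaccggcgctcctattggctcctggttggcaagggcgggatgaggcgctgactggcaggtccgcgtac
Atp5l (chr9:44920743-44920992, minus strand): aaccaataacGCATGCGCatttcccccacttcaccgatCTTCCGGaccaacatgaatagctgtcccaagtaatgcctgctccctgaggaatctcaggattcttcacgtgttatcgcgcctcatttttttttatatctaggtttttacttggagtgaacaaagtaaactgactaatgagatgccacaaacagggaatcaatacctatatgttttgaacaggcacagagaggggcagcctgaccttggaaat
Cox6a1 (chr5:115348959-115349208, minus strand): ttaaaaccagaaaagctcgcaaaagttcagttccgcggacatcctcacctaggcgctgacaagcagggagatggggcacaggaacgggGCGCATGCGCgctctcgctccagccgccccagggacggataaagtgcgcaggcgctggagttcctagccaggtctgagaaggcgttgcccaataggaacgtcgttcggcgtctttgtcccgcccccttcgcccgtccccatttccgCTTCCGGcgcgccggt
Uqcr11 (chr10:80406822-80407071, minus strand): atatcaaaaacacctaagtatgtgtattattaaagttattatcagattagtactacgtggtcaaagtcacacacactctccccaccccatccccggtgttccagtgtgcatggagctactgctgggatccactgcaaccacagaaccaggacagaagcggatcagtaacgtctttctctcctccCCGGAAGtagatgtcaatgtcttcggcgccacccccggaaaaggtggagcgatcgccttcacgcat

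In Cox6a1 the NRF1 letters match on both strands within 1 overlapping stretch. The median difference under TST was -0.08 over the 8 genes with the NRF1 letters and 0.045 over the 62 without. For the ETS letters it was 0.12 over the 11 genes with them and 0.035 over the 59 without. This order turned for the NRF1 letters only at the low dose against water, and for the ETS letters in every other comparison. For the NRF1 letters the medians with and without were -0.025 and -0.0925 at the low dose against water, -0.15 and -0.06 at the high dose, and -0.0875 and 0.0075 between the doses. For the ETS letters they were -0.125 and -0.07, -0.10 and -0.06, and -0.025 and 0. Single arrays moved these medians. Without water with TST replicate 2, the TST medians with and without the letters were -0.045 and -0.015 for NRF1. For ETS they were 0.02 and -0.02. The NRF1 order at the low dose turned without low-dose replicate 1 (-0.2275 and -0.15) or water with TST replicate 2 (-0.0175 and -0.015). At the high dose it turned without water with TST replicate 1 (-0.03 and -0.11) or high-dose replicate 1 (-0.0475 and -0.0925). The ETS order turned at the low dose without low-dose replicate 1, to -0.15 and -0.205. At the high dose the ETS order turned without high-dose replicate 1, to -0.09 and -0.095. Between the doses it turned without high-dose replicate 2, to -0.025 and -0.03.

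Most of the genes were expressed strongly: 76 of the 85 had a mean above the median of all rows, and 44 lay in the top 10%. They also varied little. The median range over the 8 arrays was 0.59 for the 85 genes and 0.88 for all rows. It was 0.7 for the 3375 rows whose mean lay between the quartiles of the 85 genes. A range over 1 was seen in 5 genes (5.88%), against 37.9% of all rows and 27.2% of those 3375 rows. These 5 were Ndufs7 (1.08), Cox4i2 (1.2), Ndufv3 (1.43), Cox8c (1.5) and Cox6b2 (1.6). All but Ndufs7, an iron-sulfur subunit of complex I, had means below the median of all rows.

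**Figure D1:**
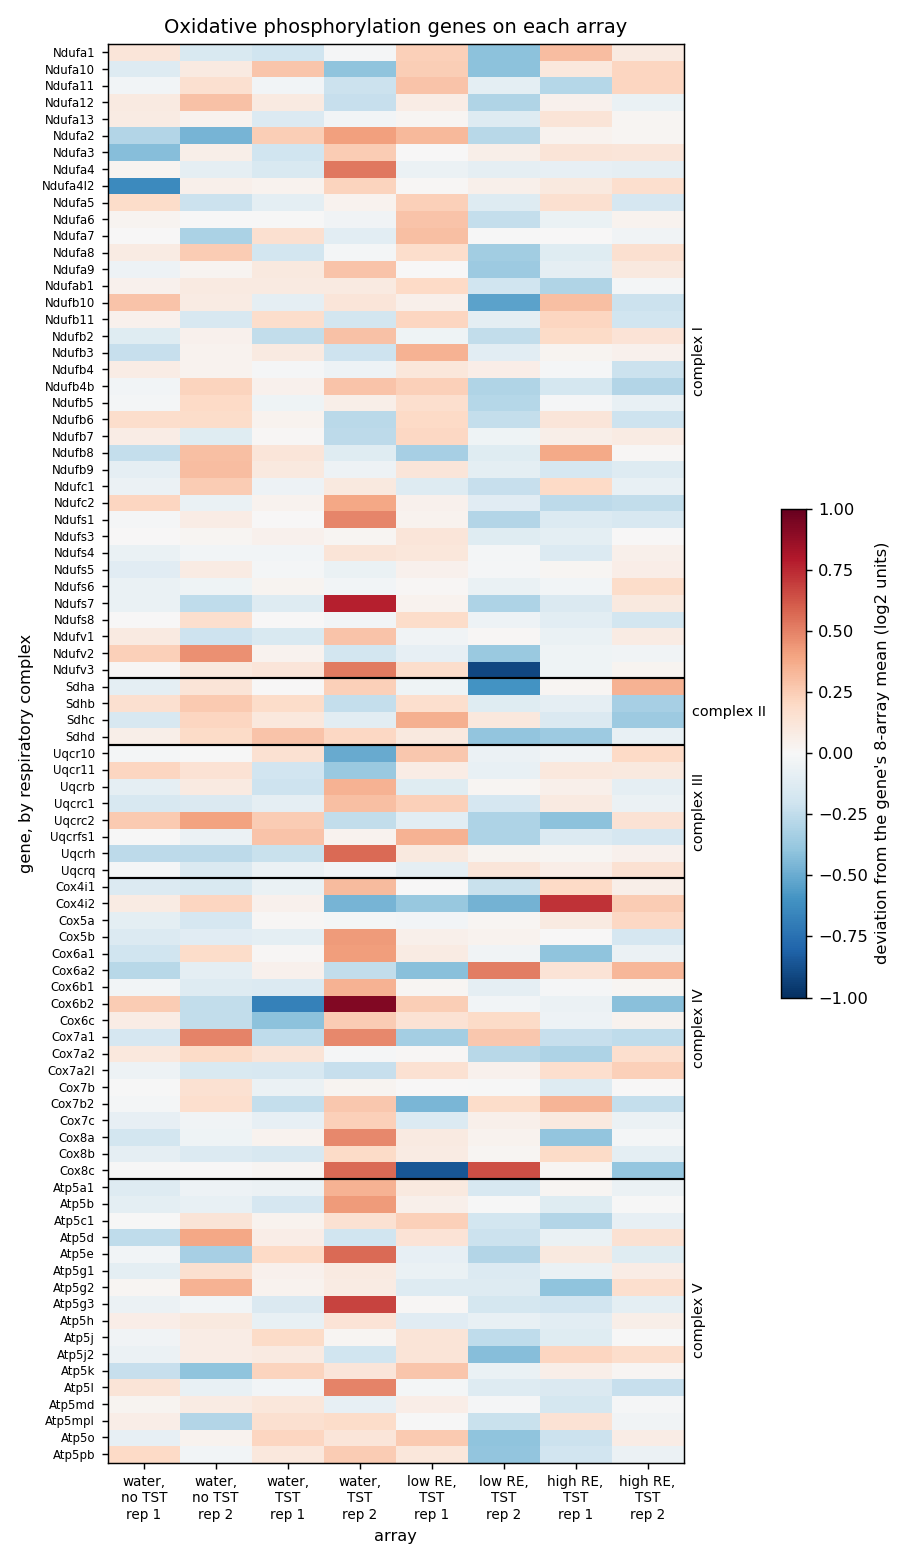
Each of the 85 genes (rows, grouped by complex) on the 8 arrays (columns), coloured by its deviation from its own mean over the 8 arrays in log2 units. Low-dose RE replicate 2 is mostly below the mean, with 66 of 85 genes, and water with TST replicate 2 holds the highest value of 33 genes.

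The subunit genes changed little between groups. At the study's own threshold, a change of more than 1.2-fold (0.263 in log2 units) together with an unadjusted p under 0.05, limma called 1 gene in water with TST against water without TST, 0 in low-dose RE against water, 1 in high-dose RE against water and 1 between the doses. Over all rows this threshold called 2.55%, 3.54%, 3.17% and 1.91% in these comparisons, each a larger share than that of the 85 genes. At a Benjamini-Hochberg adjusted p under 0.05, 0 of the 85 genes and 0% of all rows passed in each comparison. Those with an unadjusted p under 0.05 numbered 1, 0, 1 and 1. The methods' analysis of variance gave 3, 1, 1 and 0 past the threshold. The shares of all rows above are those of limma, so they are no background for these counts. The moderated F-test for any difference among the 4 groups gave an unadjusted p under 0.05 for 1 of the 85 genes, Cox4i2, against 1.82% of all rows, and its adjusted p was 1.

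The precision bounds what could have been missed. The 95% interval of the difference lay within a 2-fold change either way for 76, 78, 71 and 77 of the 85 genes with TST, for the low and high dose against water and between the doses, and within 1.5-fold for 12, 12, 12 and 9. The interval reached a median of 0.58 to either side of the difference, so shifts of the size of most differences described below were not detectable gene by gene. The median standard error was 0.253 for the 85 genes and 0.292 for all rows.

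Groups whose arrays did not overlap were found for 26 of the 85 genes (30.6%) with TST, 17 higher and 9 lower, against 27.5% of all rows. In low-dose RE against water there were 12 (14.1%; 4 higher, 8 lower) against 25%. In high-dose RE against water there were 33 (38.8%; 11 higher, 22 lower) against 30.5%, and between the doses 24 (28.2%; 13 higher, 11 lower) against 26.6%. The low-dose and high-dose comparisons share the arrays of water with TST. The shares of the TST and dose comparisons were close to those of all rows.

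The median difference over the 85 genes was 0.05 in water with TST against water without (all rows 0.005), with 50 genes higher and 35 lower. For the low dose against water it was -0.095 (all rows 0.015), with 57 lower and 27 higher. For the high dose against water it was -0.08 (all rows 0.01), with 50 lower and 35 higher. Between the doses it was 0 (all rows -0.005), with 42 higher and 41 lower. These medians moved with single arrays. Without water with TST replicate 2 the low-dose median was -0.015 and the high-dose median -0.01, and without low-dose replicate 2 the low-dose median was 0. Without low-dose replicate 1 the low-dose median was -0.185, without water with TST replicate 1 both were -0.12, and without high-dose replicate 1 or 2 the high-dose median was -0.095 or -0.10. The TST median was -0.015 without water with TST replicate 2 and 0 without water without TST replicate 1. Without low-dose replicate 1 the dose median was 0.115, and without low-dose replicate 2 it was -0.09. The median size of a difference, whatever its sign, was 0.13, 0.145, 0.15 and 0.105 over the 85 genes in the 4 comparisons, below the 0.21, 0.22, 0.215 and 0.165 of all rows.

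**Figure D2:**
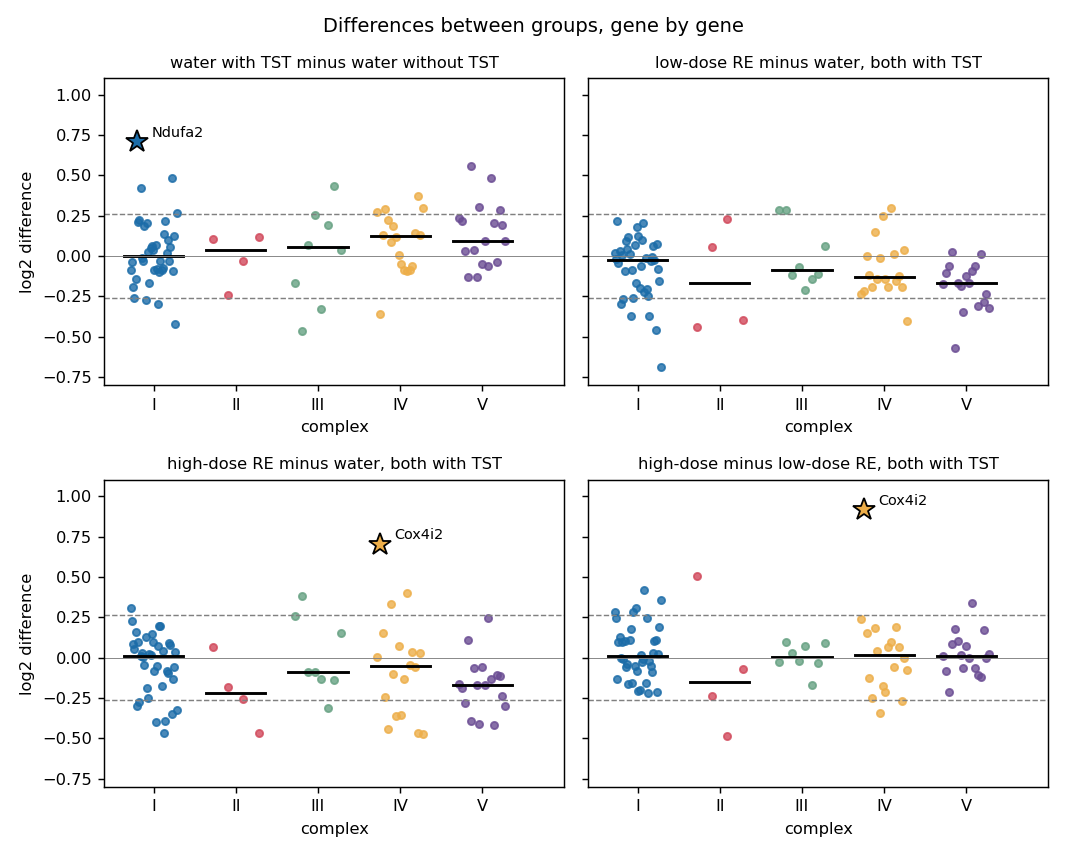
Log2 difference of each gene (points) by complex, in the 4 comparisons, with the median of each complex as a bar and dashed lines at a fold change of 1.2. Stars mark the genes past the study's threshold: Ndufa2 with TST at 0.705, and Cox4i2 at 0.70 for the high dose against water and 0.915 for the high against the low dose.

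Complex I oxidizes NADH, and its genes showed medians near 0 in all comparisons: 0.0025 with TST, -0.0275 for the low dose against water, 0.0125 for the high dose and 0.0075 between the doses. The low-dose arrays pulled in opposite directions: without replicate 1 the low-dose median was -0.1825 (33 of 38 lower) and the dose median 0.1425, and without replicate 2 they were 0.0875 and -0.1525. Its 6 measured core subunits, most of which carry the flavin or iron-sulfur clusters, had medians of 0.0725, -0.1175, -0.1075 and 0. The other 32 genes counted with complex I, mostly supernumerary subunits but with Ndufa4 and Ndufa4l2 among them, had -0.0225, -0.0175, 0.0275 and 0.0075. Across the 8 arrays the steadiest of the 85 genes was Ndufs5, a supernumerary subunit, with values of 11.89 and 12.08 in water without TST, 11.98 and 11.93 in water with TST, 12.04 and 11.99 at the low dose and 12.02 and 12.07 at the high dose. Within this range of 0.19, both arrays of water with TST lay below all 4 RE arrays, and the TST and dose comparisons overlapped.

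Ndufa2, a small supernumerary subunit with a thioredoxin-like fold, was the 1 gene of the 85 past the threshold with TST. It measured 10.18 and 10.01 in water without TST, 10.72 and 10.88 in water with TST, 10.80 and 10.20 at the low dose and 10.51 and 10.49 at the high dose. Both arrays of water with TST lay above both arrays of water without TST. It rose by 0.705 (SE 0.262, 1.63-fold, 95% interval 0.105 to 1.31; adjusted p = 0.997 in limma). Leaving out water without TST replicate 1, water without TST replicate 2 or water with TST replicate 2 gave 0.79, 0.62 and 0.625, none of them past the threshold. It stayed past only without water with TST replicate 1, at 0.785. The low and the high dose both differed from water with TST by -0.30.

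Ndufv2, a core subunit of the NADH-binding module, had the most negative difference of complex I with TST at -0.42 (SE 0.233). It read 14.37 and 14.59 in water without TST, 14.17 and 13.95 in water with TST, 14.05 and 13.76 at the low dose and 14.09 and 14.10 at the high dose. Both arrays of water without TST were above all 6 others. Ndufs7, whose protein carries the last iron-sulfur cluster before coenzyme Q, was 12.55 and 12.36 in water without TST, 12.49 and 13.39 in water with TST, 12.65 and 12.31 at the low dose and 12.47 and 12.71 at the high dose. The single high value was that of water with TST replicate 2, and the TST difference of 0.485 had an SE of 0.324.

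Ndufv3, a supernumerary subunit of the flavoprotein part, had the widest range of complex I. Its values were 6.45 and 6.54 in water without TST, 6.56 and 6.96 in water with TST, 6.62 and 5.53 at the low dose and 6.40 and 6.47 at the high dose. The low-dose difference of -0.685 (SE 0.354) was the most negative of complex I and rests on the 5.53 of low-dose replicate 2. Ndufa11, a membrane-arm subunit, had the most positive low-dose difference at 0.215. For the high dose against water the ends of complex I were Ndufc2 at -0.465 (SE 0.239) and Ndufa1 at 0.305 (SE 0.280), both small membrane-arm subunits. Between the doses they were Ndufc2 at -0.22 and Ndufb8 at 0.42 (SE 0.275), also a membrane-arm subunit. None of these passed the threshold.

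Ndufa4, named as a complex I gene and later assigned to complex IV, was 15.52 and 15.40, 15.34 and 16.02, 15.43 and 15.40, and 15.41 and 15.40 in the order of the groups above. The value that stood out was again that of water with TST replicate 2. Its paralog Ndufa4l2, known as a hypoxia-inducible gene, was 3.84 and 4.53 in water without TST, 4.51 and 4.70 in water with TST, 4.49 and 4.53 at the low dose and 4.58 and 4.65 at the high dose. It lay near the bottom of the scale, and 7 of its 8 values fell between 4.49 and 4.70.

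Complex II links the citric acid cycle to the respiratory chain, and its 4 genes had medians of 0.0375 with TST, -0.17 and -0.2175 for the low and high dose against water, and -0.1525 between the doses. The low-dose median was 0.025 without low-dose replicate 2 and -0.045 without water with TST replicate 1, and the dose median was 0.0425 without low-dose replicate 1. The TST median was -0.1125 without water without TST replicate 1 and -0.0275 without water with TST replicate 1. The high-dose median stayed below 0 whichever single array was left out, between -0.375 and -0.1025. Sdha, the flavoprotein that oxidizes succinate, was 10.91 and 11.14 in water without TST, 11.01 and 11.25 in water with TST, 10.97 and 10.41 at the low dose and 11.03 and 11.36 at the high dose. Low-dose replicate 2 was its lowest array and high-dose replicate 2 its highest. Its difference was -0.44 (SE 0.275) for the low dose against water, 0.065 for the high dose and 0.505 between the doses. Sdhb, the iron-sulfur subunit, was 11.97 and 12.07, 11.99 and 11.57, 11.98 and 11.69, and 11.72 and 11.48 in the same order. Its TST difference was -0.24 (SE 0.252), and its arrays overlapped between those groups.

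The membrane anchors of complex II are encoded by Sdhc and Sdhd. Sdhc read 11.22 and 11.59 in water without TST, 11.48 and 11.27 in water with TST, 11.73 and 11.48 at the low dose and 11.23 and 11.01 at the high dose. Both low-dose arrays were above both high-dose arrays, with a dose difference of -0.485 (SE 0.247, 95% interval -1.05 to 0.0814). Sdhd read 11.81 and 11.95, 12.04 and 11.96, 11.85 and 11.36, and 11.39 and 11.68 in that order. Both arrays of water with TST lay above all 6 others, and the differences of the low and high dose from water were -0.395 and -0.465 (SE 0.254 for each). The 4 subunits of complex II therefore did not share 1 order of the groups.

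Complex III medians were 0.055 with TST, -0.09 for each dose against water and 0.005 between the doses. Without water with TST replicate 2 the low-dose and high-dose medians were 0.10 and 0.135, of the opposite sign. The low-dose median was also above 0 without low-dose replicate 2 (0.045) or water with TST replicate 1 (0.0125), and the high-dose median without high-dose replicate 1 (0.0075). Uqcr11, a small subunit near the Rieske protein, was 8.66 and 8.59 in water without TST, 8.25 and 8.07 in water with TST, 8.52 and 8.37 at the low dose and 8.55 and 8.54 at the high dose. Both arrays of water with TST were its lowest. Its TST difference of -0.465 (SE 0.217, 95% interval -0.962 to 0.0324) was the most negative of the 85 genes. It missed the threshold in limma and passed it in the methods' analysis of variance. The low and high dose differed from water with TST by 0.285 and 0.385, and from each other by 0.10.

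Uqcrh, the hinge protein that helps bind cytochrome c, was 13.89 on both arrays of water without TST, 13.93 and 14.72 in water with TST, 14.25 and 14.18 at the low dose and 14.17 and 14.20 at the high dose. Its TST difference of 0.435 (SE 0.285) came mostly from replicate 2 of water with TST. Uqcrq, a small subunit, had the narrowest range of complex III, with 11.06 and 10.93, 11.02 and 11.05, 10.99 and 11.20, and 11.14 and 11.23 in the order of the groups. The other ends of complex III were Uqcrc2, a core protein, at -0.21 for the low dose, and Uqcrfs1, the Rieske iron-sulfur protein, at -0.31 for the high dose against water and -0.17 between the doses.

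Complex IV medians were 0.125 with TST, -0.1325 and -0.0525 for the low and high dose against water, and 0.0175 between the doses. These values moved with water with TST replicate 2, on which 13 of the 18 genes lay above their 8-array mean with a median deviation of 0.264. Without that array the medians were -0.0325, 0.045 and 0.1425, each of the opposite sign. Cox4i2, an isoform of the regulatory subunit 4 known from lung and from brain pericytes, was the 1 gene past the threshold with the high dose. It was 6.51 and 6.64 in water without TST, 6.47 and 5.96 in water with TST, 6.05 and 5.95 at the low dose and 7.15 and 6.68 at the high dose. Both high-dose arrays exceeded all 6 others.

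Cox4i2 was higher in the high-dose than in the low-dose group by 0.915 (SE 0.272, 1.89-fold, 95% interval 0.291 to 1.54; adjusted p = 1 in limma). Against water with TST it rose by 0.70 (SE 0.272, 1.62-fold, 95% interval 0.0762 to 1.32; adjusted p = 0.973 in limma). Without high-dose replicate 1 these differences were 0.68 and 0.465, and without water with TST replicate 2 the difference from water was 0.445, none of them past the threshold. In the methods' analysis of variance neither passed. The ubiquitous isoform Cox4i1 was 13.37 and 13.36, 13.44 and 13.83, 13.51 and 13.29, and 13.71 and 13.57 in the order of the groups, with a high-dose difference from water of 0.005. A list of 13 mural cell markers, all measured, was chosen after the values were seen. Its mean deviations were 0.038 and -0.037 on the high-dose arrays and -0.148 to 0.234 on the other 6. The part of mural cell content in the Cox4i2 values was not tested.

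**Figure D3:**
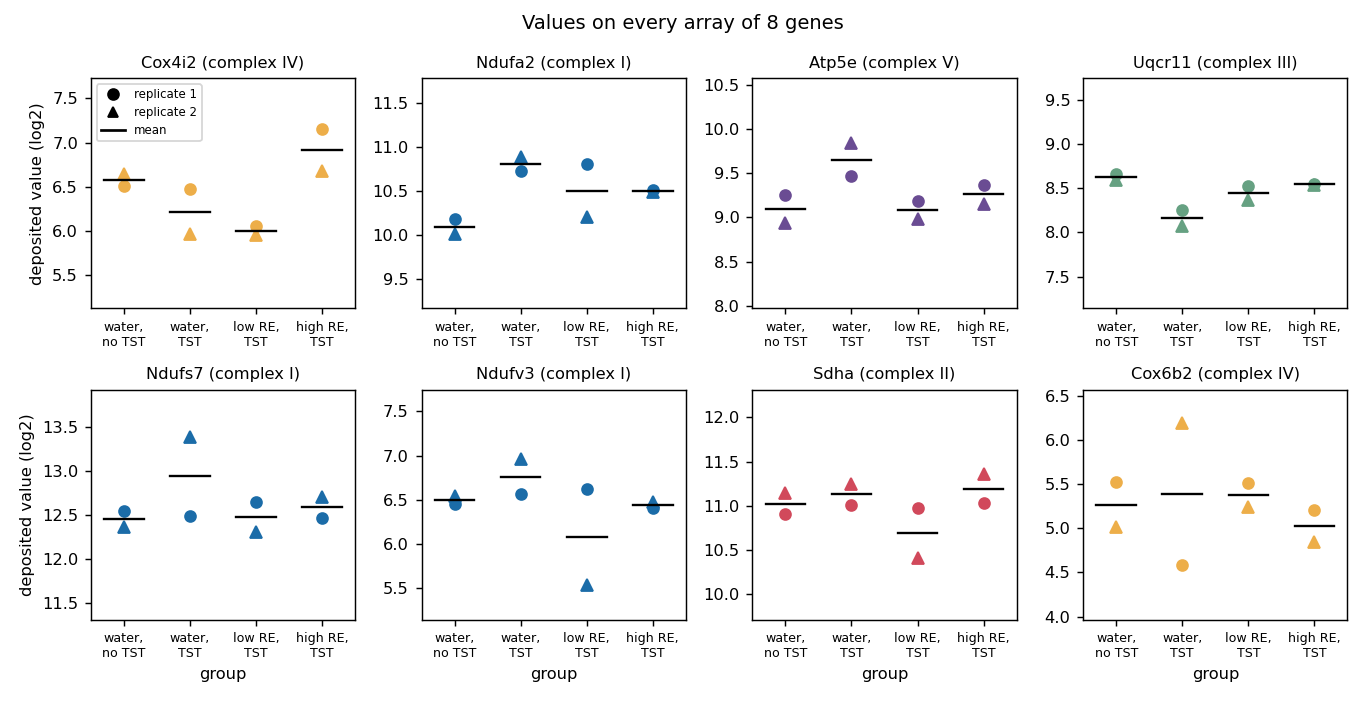
Deposited log2 values of 8 genes in the 4 groups, with replicate 1 as circles, replicate 2 as triangles and the group mean as a line; every panel spans the same 2.6 log2 units. Cox4i2 is highest on both high-dose arrays (7.15 and 6.68) and Ndufa2 on both arrays of water with TST among the water groups, while Ndufs7, Ndufv3 and Cox6b2 each have 1 array far from the rest.

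Among the isoforms of complex IV known from heart and skeletal muscle, Cox6a2 ran from 7.02 to 7.95, Cox7a1 from 6.56 to 7.39 and Cox8b from 4.99 to 5.34. Among those known from testis, Cox6b2 was 5.52 and 5.02 in water without TST, 4.59 and 6.19 in water with TST, 5.51 and 5.24 at the low dose and 5.21 and 4.85 at the high dose. The arrays of water with TST were its lowest and its highest, 1.6 apart. Cox8c was 6.43 and 7.93 on the low-dose arrays and between 6.90 and 7.85 on the others. Cox7b2 ran from 7.72 to 8.52. None of these groups differed past the threshold.

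Of the ubiquitous partners, Cox8a, a small subunit, had the most positive TST difference of complex IV at 0.37 (SE 0.254), with 15.78 and 15.92 in water without TST and 16 and 16.44 in water with TST. At the low dose it was 16.05 and 16 and at the high dose 15.57 and 15.94, below both arrays of water with TST. Cox6a1 was 16.47 and 16.85, 16.68 and 17.09, 16.75 and 16.63, and 16.27 and 16.61 in the order of the groups. Its high-dose difference from water was -0.445 (SE 0.265), and its highest value, 17.09, was that of water with TST replicate 2. Cox6b1 and Cox7a2 differed by 0.185 and -0.09 with TST and by -0.10 and -0.13 for the high dose against water. Cox7b, the steadiest gene of the complex, was 14.14 and 14.30, 14.09 and 14.17, 14.15 and 14.14, and 14.02 and 14.15.

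Cox7a2l, a factor in joining complexes III and IV into supercomplexes, was 11.89 and 11.79 in water without TST, 11.78 and 11.71 in water with TST, 12.10 and 11.99 at the low dose and 12.11 and 12.18 at the high dose. All 4 RE arrays were above all 4 water arrays. The mean deviation of the thalamic markers split the arrays in the same way, and the part of tissue content was not tested. The low-dose and high-dose differences from the same water arrays were 0.30 and 0.40, with an SE of 0.213 for each. They did not pass the threshold in limma and passed it in the methods' analysis of variance, with adjusted p above 0.05. The most negative differences from water in complex IV were those of Cox8c, at -0.40 for the low and -0.475 for the high dose (SE 0.455); the former was 0.35 without low-dose replicate 1. Cox6b2 was the most negative between the doses at -0.345 (SE 0.474).

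Complex V medians were 0.09 with TST, -0.17 for the low dose and -0.17 for the high dose against water, and 0.01 between the doses. In each comparison with water, 15 of its 17 genes were lower. Over all rows 47.5% were lower at the low dose and 48.1% at the high dose. Because both comparisons use the same arrays of water with TST, these counts are not independent of each other. Without water with TST replicate 2 the medians were -0.115 (14 lower) and -0.145 (12 lower), and without low-dose replicate 2 the low-dose median was -0.065 (10 lower). No gene of complex V passed the threshold in any of the 4 comparisons.

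Atp5e, the epsilon subunit of the rotor stalk, lay farthest out. It was 9.25 and 8.94 in water without TST, 9.47 and 9.84 in water with TST, 9.19 and 8.98 at the low dose and 9.37 and 9.15 at the high dose. Both arrays of water with TST were above all others. It was 0.56 higher with TST (SE 0.251, 95% interval -0.0157 to 1.14). The differences from water with TST were -0.57 at the low dose (95% interval -1.15 to 0.00572) and -0.395 at the high dose. After array medians were subtracted the low-dose difference was -0.605 and passed the threshold. Without water with TST replicate 2 the TST and low-dose differences were 0.375 and -0.385, and without replicate 1 they were 0.745 and -0.755 and passed.

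Atp5a1 and Atp5b encode the catalytic alpha and beta subunits. Atp5b was 17.10 and 17.12 in water without TST, 17.03 and 17.62 in water with TST, 17.25 and 17.19 at the low dose and 17.08 and 17.19 at the high dose, all past 16. Only water with TST replicate 2 stood off. Atp5a1 differed by 0.235 with TST and by -0.175 and -0.165 for the low and high dose against water (SE 0.242), and without water with TST replicate 2 by 0.03, 0.03 and 0.04. Atp5g1, Atp5g2 and Atp5g3 encode the same mature c subunit of the membrane ring. Their TST differences were 0.035, -0.13 and 0.305, and their high-dose differences from water -0.065, -0.17 and -0.41. Atp5g3 was 14.40 on water with TST replicate 2 and 13.53 to 13.74 on the other 7 arrays, and without that array its TST difference was -0.105 and its high-dose difference 0.

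Atp5l, a membrane subunit at the dimer interface, had the most negative high-dose difference of complex V at -0.42 (SE 0.253). It was 12.26 and 12.06, 12.10 and 12.63, 12.11 and 12.00, and 11.99 and 11.90 in the order of the groups, with both high-dose arrays at the bottom. The 12.63 of water with TST replicate 2 was its highest value, and that array enters the difference. Atp5j2, the membrane subunit f, was the most positive for the high dose against water at 0.245 and between the doses at 0.34 (SE 0.262). Atp5d, the delta subunit of the rotor stalk, was -0.13 with TST and 0.025 at the low dose. The gamma subunit gene Atp5c1 was the most negative between the doses at -0.215. Atp5h, a stator subunit, had the narrowest range of complex V, with 16.23 and 16.26, 16.09 and 16.30, 16.05 and 16.09, and 16.06 and 16.22.

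Spread within a group set the scale for all of these differences. On the low-dose arrays, 70 of the 85 genes were lower in replicate 2 than in replicate 1 (82.4%), with a median difference of -0.22. Over all rows 50.1% were lower and the median was -0.01. The 70 were 34 of 38 genes of complex I, 4 of 4 of complex II, 6 of 8 of complex III, 11 of 18 of complex IV and 15 of 17 of complex V. Low-dose replicate 2 was the lowest of the 8 arrays for 29 genes (34.1%, against 15.3% of all rows), and all 17 genes of complex V were below their mean there.

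Water with TST replicate 2 was the highest array for 33 of the 85 genes (38.8%, against 23.7% of all rows). A difference over 0.5 between replicates was found for 17 genes in water with TST and 17 at the low dose, against 4 in water without TST and 4 at the high dose. All rows also differed more in those groups. Their median absolute difference was 0.37 in water with TST and 0.33 at the low dose. It was 0.25 in water without TST and 0.22 at the high dose. By the median deviation of all 85 genes, low-dose replicate 2 (-0.119) and water with TST replicate 2 (0.0975) were the ends, and low-dose replicate 1 (0.0763) was next to the upper end. Both members of the low-dose group lay near opposite ends of the range of arrays. Genes of the cytosolic ribosome, 61 in all, had a median deviation of -0.301 on water with TST replicate 2 and -0.095 on low-dose replicate 2.

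**Figure D4:**
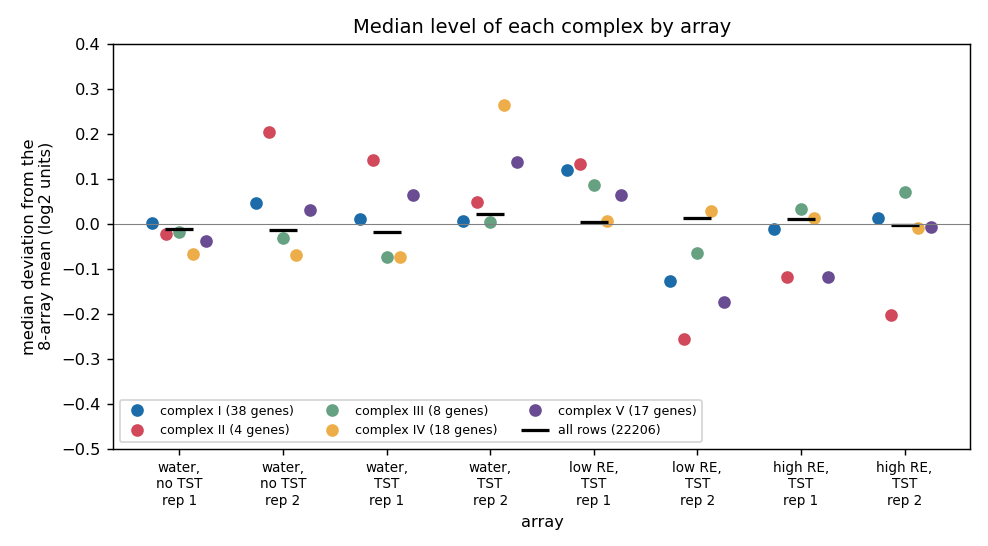
Median deviation from the 8-array mean, in log2 units, of the genes of each complex (coloured points) and of all rows (black dashes) on the 8 arrays. Complex IV stands at 0.264 on water with TST replicate 2, and complexes I, II and V lie at -0.128, -0.257 and -0.175 on low-dose RE replicate 2, while all rows stay between -0.0188 and 0.0225.

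**Figure D5:**
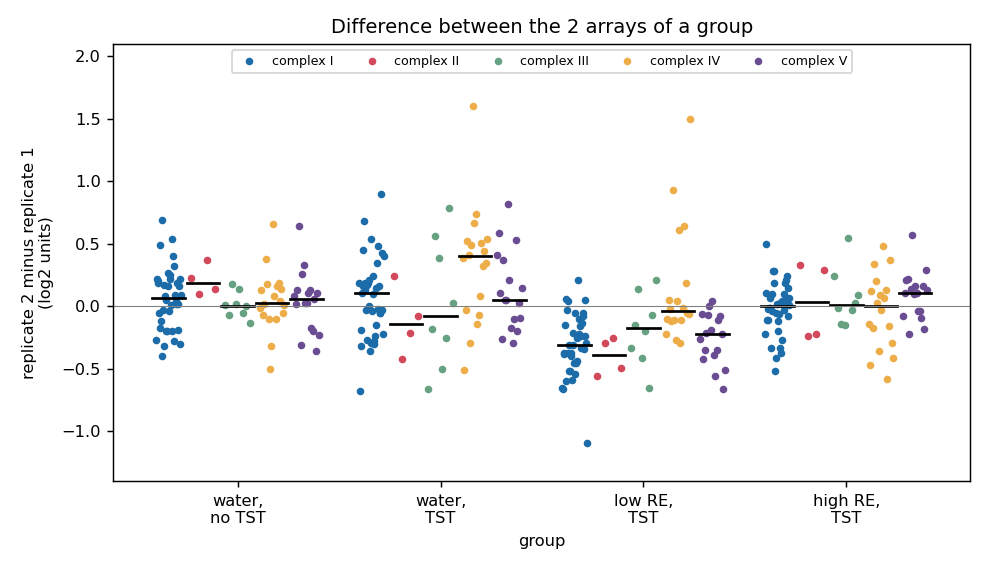
Difference between replicate 2 and replicate 1 of each of the 85 genes (points, log2 units), by group and complex, with medians as bars. In the low-dose group the medians are -0.31, -0.39, -0.175, -0.035 and -0.22 for complexes I to V, and in water with TST complex IV has a median of 0.4.

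Genes that build or control the complexes were looked at beside the subunits. Of 51 assembly factor genes, 47 were measured, with medians of -0.035, 0, 0.05 and -0.005 with TST, for the low and high dose against water and between the doses. Without low-dose replicate 1 the last was 0.12, and without replicate 2 it was -0.155. Past the threshold were 1 gene with TST and 1 with the high dose against water. Uqcc3, a complex III assembly factor, was 9.33 and 9.11 in water without TST, 9.88 and 9.84 in water with TST, 9.52 and 9.55 at the low dose and 9.23 and 9.49 at the high dose. It rose by 0.64 with TST (SE 0.225, adjusted p = 0.997 in limma). Without water without TST replicate 2 or water with TST replicate 1 the difference was 0.53 or 0.62 and not past the threshold. Foxred1, a complex I assembly factor, was 7.83 and 8.01 in water with TST and 7.46 and 7.20 at the high dose. It fell by 0.59 (SE 0.246, adjusted p = 0.973 in limma). It missed the threshold when any of these was left out: water with TST replicate 2 (-0.50), high-dose replicate 1 (-0.72) or high-dose replicate 2 (-0.46).

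A list of 16 genes held regulators of nuclear respiratory genes and factors for mitochondrial gene expression, such as Polrmt, Tfb1m, Lrpprc and Slirp. Of these, 15 were measured, with medians of 0.17, -0.095, -0.23 and -0.04 in the same order. Without water with TST replicate 2 the first 3 were -0.06, 0.02 and -0.045. The low-dose median was 0.015 without low-dose replicate 2, and the dose median was 0.135 without low-dose replicate 1. Nrf1, which encodes the factor whose letters were searched above, was 8.46 and 8.04 in water without TST, 8.56 and 9.81 in water with TST, 8.74 and 8.42 at the low dose and 8.89 and 9.02 at the high dose. It rose by 0.935 with TST (SE 0.394, adjusted p = 0.997 in limma), and the value of 9.81 on replicate 2 was its highest. Without that array the difference was 0.31, and without water without TST replicate 1 or 2 it was 1.15 or 0.725, none of them past the threshold. It was 1.56, and past it, when replicate 1 of water with TST was left out. Ppargc1a, Gabpa and Tfam, a coactivator, an ETS factor and the packaging factor of mitochondrial DNA, differed with TST by 0.09, 0.17 and -0.18 and did not pass; Gabpa was at -0.06 without water with TST replicate 2.

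Pprc1, a coactivator related to Ppargc1a, was 5.93 and 6.18 in water with TST, 6 and 6.36 at the low dose and 4.49 and 5.73 at the high dose. It fell by 0.945 against water (SE 0.412, adjusted p = 0.973 in limma) and by 1.07 against the low dose (adjusted p = 1). Its lowest value, 4.49, was that of high-dose replicate 1, without which the differences were -0.325 and -0.45. The difference from water also missed the threshold when water with TST replicate 1 (-1.07) or 2 (-0.82) was left out, as did that between the doses without low-dose replicate 1 (-1.25) or 2 (-0.89). Without high-dose replicate 2 both were past it, at -1.56 and -1.69. Esrrb, an orphan nuclear receptor, was low on all arrays, with 3.96 and 4.62 at the low dose and 3.43 and 3.60 at the high dose, and fell by 0.775 between the doses (SE 0.320, adjusted p = 1 in limma). Without low-dose replicate 2, high-dose replicate 1 or high-dose replicate 2 it was -0.445, -0.69 or -0.86, none past the threshold.

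A list of electron carriers and related genes whose symbols fall outside the rule had 10 of 12 measured. They were Cyc1, Cycs, Etfa, Etfdh, Dhodh, Gpd2, Coq10a, Coq10b, Atpif1 and Hccs. Of these, 0 were past the threshold and 0 had an unadjusted p under 0.05 in the 4 limma comparisons. Cyc1, the cytochrome c1 subunit of complex III, differed by 0.385 with TST and by -0.31 and -0.09 for the low and high dose against water. Without water with TST replicate 2 these were 0.01, 0.065 and 0.285. Cycs, which encodes cytochrome c, differed by -0.095, -0.015 and 0.02.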

How the data were processed

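Each of the 8 RNA samples has 1 Clariom S array. The deposited values are log2 values that the authors normalized with the robust multichip average in Transcriptome Analysis Console 4.0.1, per the submitters' description of the design; they were used as deposited. Gene names come from the platform annotation, whose genome build the sources used here leave out. Arrays give no read depth; their number limits the precision. limma 3.58.1 in R 4.3.3 fitted group means to all 22206 rows on all 8 arrays (4 residual and 4.30 prior degrees of freedom), with two-sided tests and Benjamini-Hochberg adjustment over all rows. The fold and p threshold is that of the study's design text. The figures were drawn with matplotlib 3.10.9.

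The genes, the lists and the rules were chosen with earlier results of these data known. Values are given for genes past the threshold, the ends of each complex in each comparison, the Sdh genes, isoform pairs and the widest and narrowest ranges; Ndufa4, Ndufs7, Cox7a2l, Atp5a1 and Atp5b beyond that rule were chosen after their values were seen, as were Ppargc1a, Gabpa, Tfam, Cyc1 and Cycs. Other cell type lists were used to describe the arrays. Same-numbered arrays were not treated as pairs. The correlations of their deviations between groups ran from -0.293 to 0.169. With a single replicate difference per group, and tissue content that differed between arrays, these cannot decide if the numbers pair the arrays. Tried beside this were fits with the replicate number as a block, with only the 4 arrays compared or with a trend and robust prior, dropping the dimmest 25% of rows, quantile normalization, centring on array medians, averaging the rows of a gene, leaving out the 9 isoforms and non-subunits, the methods' one-way analysis of variance, and leaving out arrays. A lone array in such a fit is taken to vary as the other groups do. For genes of the other lists past the threshold, and for list medians without single arrays, these alternatives were added after seeing the data. The fit was tested on simulated data. Protein sequences were not used here.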

Additional observations from a re-analysis of the deposited data

How the results depend on the processing

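The counts of genes past the threshold were 0 or 1, so that 1 gene more or less moves them. A count below without a share of all rows beside it has no background and is no result about these genes. For TST (1 gene) it was 3 in the methods' analysis of variance and 0 without both arrays high in cerebellar markers. For the low dose against water (0 genes) it was 1 after leaving out the dimmest 25% of rows, after quantile normalization, after subtracting array medians, in the analysis of variance and without both such arrays. For the high dose against water (1 gene) it was 0 with only the 4 arrays compared, without the 9 isoforms and non-subunits and without both such arrays, and 3 with a trend and robust prior. Between the doses (1 gene) it was 0 without the 9 genes and in the analysis of variance. Leaving out single arrays gave counts of 0 to 6 (TST), 1 to 5 (low dose), 0 to 9 (high dose) and 0 to 4 (doses), and medians over the 85 genes of -0.015 to 0.095, -0.185 to 0, -0.12 to -0.01 and -0.09 to 0.115. The counts of 6, 5 and 9 came without water with TST replicate 1, when 16.7%, 17% and 17% of all rows passed; the group was then the array that stood apart. Without both arrays high in cerebellar markers the medians were -0.02, -0.015 and -0.01 for TST and the doses against water. The cause of these changes was not tested. With the replicate number as a block, the counts were 1, 0, 1 and 1, and 2.24%, 3.16%, 2.85% and 1.84% of all rows passed. It is not known if the numbers pair the arrays. Of genes outside the 85, Foxred1 and Pprc1 (high dose) and Nrf1 (TST) were not past the threshold with this block. Averaging the rows of a gene changes nothing, as each gene has 1 row. With 2 arrays a group, differences under about 0.58 were not detectable for most genes.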

Other observations

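Genes of the pathways that feed the respiratory chain were measured too. Of 17 genes of the citric acid cycle and of pyruvate dehydrogenase (among them Pdha1, Pdhb, Dlat and Pdhx), 16 were measured. Their medians were 0.0175 with TST and -0.0825 and -0.1 for the low and high dose against the shared water arrays. Between the doses the median was -0.0175 (all rows 0.005, 0.015, 0.01 and -0.005 in the 4 comparisons). On low-dose replicate 2, 14 of the 16 were below their 8-array mean, with a median deviation of -0.171. Without that array the low-dose median was 0.03, and without water with TST replicate 2 the TST median was -0.0625. Of 16 glycolysis genes, 14 were measured, with medians of -0.0475, 0.0475, 0.135 and 0.0725. For the high dose against water 11 of the 14 were higher. On water with TST replicate 2, 10 of the 14 were below their mean (median deviation -0.159), and without that array 7 were higher and 7 lower, with a median of -0.0025. The TST and low-dose medians were then 0.085 and -0.035, each of the opposite sign. In both lists 0 genes passed the threshold and 0 had an unadjusted p under 0.05 in limma in the 4 comparisons. Ldha, a lactate dehydrogenase subunit, differed by -0.66 with TST and by 0.715 and 0.535 for the low and high dose, and Ldhb, the other subunit, by 0.065, -0.045 and 0.105. Ldha was 12.94 on water with TST replicate 2 and 14.32 to 14.75 on the other 7 arrays, and without that array its differences were 0.245, -0.19 and -0.37, each of the opposite sign. Both genes were chosen after their values were seen.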
